A study of Homo sapiens with 4 samples.

Results

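The genes described are the collagens, laminins, integrins and other matrix proteins that SK-MEL-28 human melanoma cells transcribed at a measurable level. They were chosen by gene symbol: collagen alpha chains, laminin chains, integrin subunits, thrombospondins, and FN1, SPARC, TNC, VCAN, NID1, NID2 and HSPG2. Of 94 symbols with such names, 31 averaged 1 FPKM or more across the 4 libraries and form the set, out of 11147 genes at that level and 25268 symbols in all. FPKM is a count of sequenced fragments scaled by transcript length and by the library's total, so that levels of different genes can be compared. The set holds 6 collagens, 6 laminins, 13 integrins and 6 other matrix genes, all 31 of which matched GENCODE, on 13 chromosomes.

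RNA-Seq was performed on SK-MEL-28 cells transduced with lentivirus carrying either the empty pTRIPZ vector (vector line) or MYC under a Tet-inducible promoter (MYC-inducible line). Each line was sequenced without doxycycline (Dox) and after 54 h with Dox, as 1 library each. They are called untreated and Dox-treated vector cells, and untreated and induced MYC cells, and where 4 values follow each other without names they stand in that order. All 4 cultures were kept with G418, and whether the lines were clones or pools is not given in the sources used here. With 1 library per condition no test of any difference was possible, no p-value is given, and a difference between cultures cannot be told apart from an effect of Dox or of MYC. A change is the difference of log2(FPKM + 0.1) between 2 libraries, which understates changes of low genes, and a gene is said to have risen or fallen where the change was at least 1.5-fold.

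The extracellular matrix is built from large secreted proteins. Laminins are trimers of an alpha, a beta and a gamma chain and, with the heparan sulfate proteoglycan perlecan (HSPG2), form basement membranes. Fibronectin (FN1), tenascin-C (TNC) and versican (VCAN) belong to the interstitial or provisional matrix, and SPARC is a secreted collagen-binding glycoprotein. Integrins, heterodimers of an alpha and a beta subunit, are the receptors by which cells hold on to these proteins, and in melanoma the subunit ITGB3 is known for its link to invasive growth.

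The depth read from genes with very low values was approximately 34900000 to 41800000 fragments per library. It rests on 96 genes, whose single estimates for untreated vector cells had quartiles of 32800000 and 40800000 fragments. MYC had 58.3 FPKM in untreated vector cells, 54.8 FPKM in Dox-treated vector cells, 76.5 FPKM in untreated MYC cells and 87.1 FPKM in induced MYC cells. The MYC value was therefore highest in the library labelled MYC-inducible with Dox, at a log2 change of 0.19, short of 1.5-fold. The melanocyte markers were present, with PMEL between 3394 and 6227 FPKM. Of the 8 fibroblast markers, 6 stayed under 0.1 FPKM in every library, as did all 4 leukocyte markers. Among the defining fibroblast genes, THY1 was listed at 0 in all 4 libraries, while the matrix gene LUM had 26.0 to 31.5 FPKM.

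In the MYC-inducible line, 17 of the 31 genes fell with Dox and 1, VCAN, rose. Over all 11147 genes, 8.85% fell and 5.90% rose in the same comparison. The median log2 change was -0.61 over the 31 genes and -0.03 over all genes, and 27 of the 31 values were below 0. The genes that fell were 4 of 6 collagens, 2 of 6 laminins, 8 of 13 integrins and 3 of 6 other matrix genes. In the vector line 0 of the 31 genes rose and 0 fell, against 0.709% and 0.440% of all genes, and the median was -0.02 against 0.01 over all genes. Whether the lines differ in this was not tested. In bulk RNA, fewer cells of a kind and less RNA per cell cannot be told apart.

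Because the choice of reference matters with single libraries, the library with induced MYC was also set against each of the other 3. It lay at least 1.5-fold below all 3 for 10 of the 31 genes (COL11A1, COL6A2, FN1, ITGA3, ITGA7, ITGB3, LAMB2, LAMB3, SPARC and TNC), against 5.86% of all genes. It lay at least 1.5-fold above all 3 for 1 gene, VCAN, against 4.17% of all genes. Between the untreated libraries 1 of the 31 genes, COL6A1, was at least 1.5-fold higher in MYC cells, against 0.592% of all genes, and 0 were lower, against 0.287%. Summed over the 31 genes, the level was 1171 FPKM in untreated vector cells, 1111 FPKM in Dox-treated vector cells, 1209 FPKM in untreated MYC cells and 725 FPKM in induced MYC cells. The last sum was 60.0% of that in untreated MYC cells, while Dox-treated vector cells had 94.9% of the sum in untreated vector cells.

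**Figure D1:**
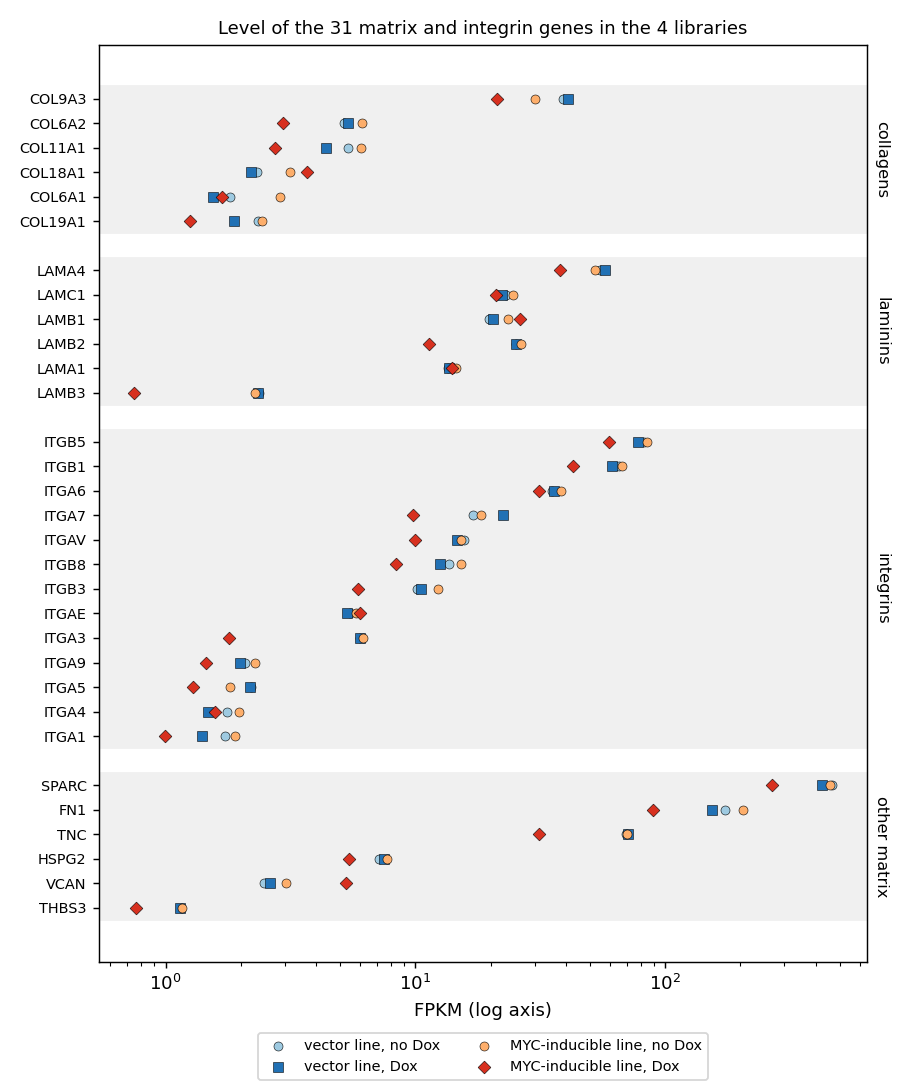
Each row is 1 of the 31 genes, grouped by class and ordered by mean level, and each point is its FPKM in 1 of the 4 libraries on a log axis. Induced MYC cells (red diamonds) lay lowest for most genes and highest for VCAN, at 5.27 FPKM, LAMB1, COL18A1 and ITGAE.

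The sequences just before the transcription start are shown for 5 genes on which the results turn: the beta laminin chains LAMB1 and LAMB2, which parted from each other, fibronectin and tenascin-C, which fell, and versican, which rose. They were picked with the values known. The windows searched were the 250 bases before the RefSeq start (GRCh38.p14 table) on the gene's own strand, and each of the 5 matched GRCh37, the build named for these data, at 1 place. Printed is the part of each that also lies before the GENCODE start: chr7:107643659-107643856 (LAMB1, minus strand), chr3:49170552-49170733 (LAMB2, minus strand), chr2:216300797-216301041 (FN1, minus strand), chr9:117880487-117880686 (TNC, minus strand) and chr5:82767313-82767436 (VCAN, plus strand). Capitals mark the GC box GGGCGG, the core of Sp1-type sites, on either strand.
LAMB1: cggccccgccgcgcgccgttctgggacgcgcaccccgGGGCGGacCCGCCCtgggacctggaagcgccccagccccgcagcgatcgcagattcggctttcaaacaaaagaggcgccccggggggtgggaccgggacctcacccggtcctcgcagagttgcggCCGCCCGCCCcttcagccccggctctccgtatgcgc
LAMB2: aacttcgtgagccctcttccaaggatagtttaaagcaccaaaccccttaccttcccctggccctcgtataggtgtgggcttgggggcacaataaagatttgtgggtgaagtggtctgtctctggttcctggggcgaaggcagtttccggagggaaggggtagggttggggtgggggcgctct
FN1: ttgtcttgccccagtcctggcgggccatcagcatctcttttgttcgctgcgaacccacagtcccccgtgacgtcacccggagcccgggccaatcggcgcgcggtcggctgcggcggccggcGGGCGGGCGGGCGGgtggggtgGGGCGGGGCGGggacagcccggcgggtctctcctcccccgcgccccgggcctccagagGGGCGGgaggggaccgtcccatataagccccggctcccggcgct
TNC: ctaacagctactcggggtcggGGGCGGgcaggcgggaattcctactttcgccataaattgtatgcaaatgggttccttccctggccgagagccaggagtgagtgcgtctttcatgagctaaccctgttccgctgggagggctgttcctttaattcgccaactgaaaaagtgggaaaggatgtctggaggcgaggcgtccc
VCAN: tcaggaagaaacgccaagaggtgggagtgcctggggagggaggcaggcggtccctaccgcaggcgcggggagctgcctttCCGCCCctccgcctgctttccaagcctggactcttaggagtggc

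The promoter table held 24 of the 31 genes. Matches were counted on both strands, and GC boxes may overlap each other, as they do in LAMB1 and FN1. A GC box stood in 16 of the 24 windows (66.7%), in 69.0% of the 8381 windows of genes that passed the filter of 1 FPKM (expressed genes) and in 42.3% of all 27305 windows. LAMB1 had 4 GC boxes and FN1 had 6, while LAMB2, TNC and VCAN had 1 each, that of LAMB2 in the stretch left out above. The E-box CACGTG, the site that MYC binds with its partner MAX, was found in 1 of the 24 windows, that of ITGA6, a share of 4.17%. It stood in 9.40% of windows of expressed genes and in 6.49% of all windows. None of the 5 windows shown holds those 6 letters, which says nothing of MYC binding elsewhere. The AP-1 motif TGANTCA was in 0 of the 24 windows and in 3.73% of those of expressed genes, and TATAAA was in 2 of the 24 (COL6A2 and ITGA6) and in 4.77%.

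SPARC, on chromosome 5, was the most abundant of the 31 genes. It had 464 FPKM in untreated vector cells, 424 FPKM in Dox-treated vector cells, 457 FPKM in untreated MYC cells and 268 FPKM in induced MYC cells. The first 3 libraries lay close together and the last stood apart, at a log2 change of -0.77 in MYC cells and -0.13 in vector cells. Fibronectin, encoded by FN1, is an adhesive glycoprotein that several integrins bind. It had 174 FPKM in untreated vector cells, 154 FPKM in Dox-treated vector cells, 205 FPKM in untreated MYC cells and 89.7 FPKM in induced MYC cells. The log2 change of FN1 was -1.19 in MYC cells and -0.18 in vector cells, and against the vector library with Dox the difference was -0.78, since the untreated MYC-inducible library was the highest of the 4. The approximate counting error of a change on induction ran from 0.00944 for SPARC to 0.170 for THBS3 and covers the sampling of fragments, not differences between cultures.

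TNC encodes tenascin-C, a large glycoprotein that modulates adhesion to fibronectin. Its level was 69.7 FPKM in untreated vector cells, 71.1 FPKM in Dox-treated vector cells, 70.5 FPKM in untreated MYC cells and 31.2 FPKM in induced MYC cells. The 3 libraries without induction were nearly level, and the log2 change was -1.18 in MYC cells and 0.03 in vector cells. HSPG2 (perlecan) had 7.17, 7.50, 7.73 and 5.41 FPKM, a log2 change of -0.51 that stayed short of 1.5-fold. THBS3, a thrombospondin, had 1.16, 1.14, 1.16 and 0.758 FPKM, a log2 change of -0.56 that also stayed short of it. MTX1, which overlaps THBS3 on the opposite strand, had 43.8, 47.7, 40.0 and 51.2 FPKM, and its part in the THBS3 values was not tested.

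VCAN encodes versican, a large chondroitin sulfate proteoglycan, and was the gene of the set that rose. It had 2.47 FPKM in untreated vector cells, 2.61 FPKM in Dox-treated vector cells, 3.03 FPKM in untreated MYC cells and 5.27 FPKM in induced MYC cells. The last library was the highest, with a log2 change of 0.78 in MYC cells and 0.08 in vector cells. Against the vector library with Dox the log2 difference was 0.99. The versican gene lies on chromosome 5 of GRCh37 and is overlapped on the opposite strand by the long noncoding RNA VCAN-AS1.

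Among the laminin chains the change was uneven. LAMB2, the laminin beta 2 chain, had 25.3 FPKM in untreated vector cells, 25.3 FPKM in Dox-treated vector cells, 26.6 FPKM in untreated MYC cells and 11.4 FPKM in induced MYC cells. LAMB1, the beta 1 chain that takes the same place in the trimer, had 19.8, 20.5, 23.6 and 26.3 FPKM in that order. The log2 change on induction was thus -1.22 for LAMB2 and 0.16 for LAMB1, and in vector cells 0.00 and 0.05. As a ratio of FPKM, LAMB2 to LAMB1 was 1.28 and 1.23 in vector cells without and with Dox, 1.13 in untreated MYC cells and 0.433 with Dox. The order of the beta chains was therefore turned round in that 1 library. LAMB1 shares exon sequence with DLD on the opposite strand, which had 32.8, 32.7, 34.6 and 40.8 FPKM, and its part in the LAMB1 values was not tested.

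LAMC1, the gamma 1 chain shared by most laminins, had 23.1, 22.3, 24.5 and 21.0 FPKM, a log2 change of -0.22 in MYC cells. LAMA1 (alpha 1) lay between 13.5 and 14.6 FPKM in all 4 libraries, a log2 change of -0.06 on induction. LAMA4 (alpha 4), the most abundant laminin gene, had 55.0, 57.3, 52.3 and 37.8 FPKM, a log2 change of -0.47. These 3 chains stayed short of 1.5-fold on induction, although against the vector library with Dox the log2 difference of LAMA4 was -0.60, past 1.5-fold. LAMB3, the beta 3 chain known from epithelial basement membranes, had 2.36, 2.34, 2.28 and 0.748 FPKM. The first 3 values were nearly level and the fourth was low, at a log2 change of -1.49 and a counting error of 0.137, from approximately 118 fragments in the induced library.

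**Figure D2:**
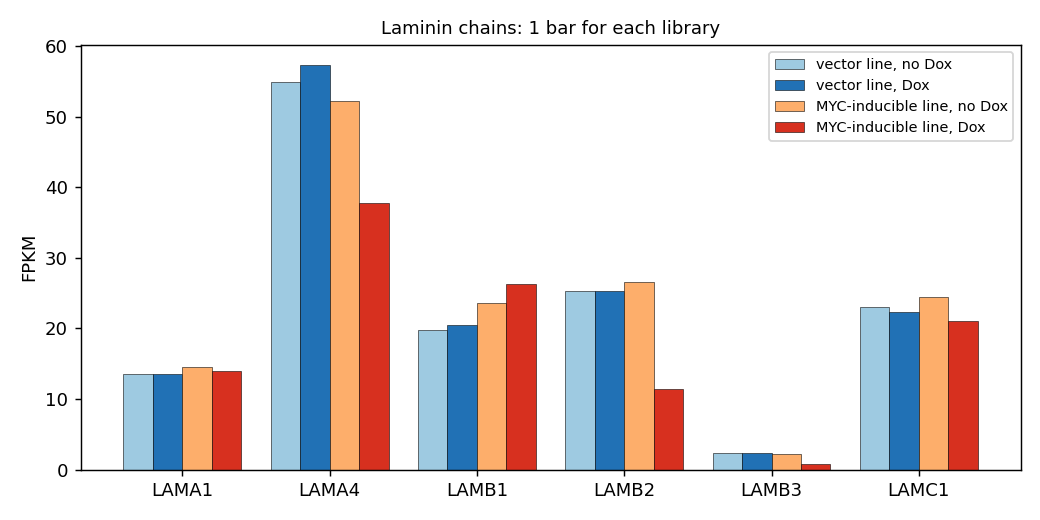
Each bar is the FPKM of 1 laminin chain in 1 library, with the axis starting at 0 and no replicates behind a bar. LAMB2 was at 11.4 FPKM in induced MYC cells and at 25.3 to 26.6 FPKM in the other 3 libraries, while LAMB1 was at 26.3 FPKM and at 19.8 to 23.6 FPKM.

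Over the 13 integrin subunits the median log2 change on induction was -0.61. ITGA3, the alpha 3 subunit of a laminin receptor, had the largest fall of the whole set. Its values were 5.98 FPKM in untreated vector cells, 6.02 FPKM in Dox-treated vector cells, 6.17 FPKM in untreated MYC cells and 1.80 FPKM in induced MYC cells. The first 3 were level and the last was 3.30-fold lower than in untreated MYC cells, and the log2 change was -1.72, with 0.0838 as its counting error. The gene lies on chromosome 17 of GRCh37 from 48133332 to 48167845.

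ITGA6 and ITGA7 are also alpha subunits of laminin receptors. ITGA6, the most abundant alpha subunit, had 35.1, 35.8, 38.4 and 31.1 FPKM, a log2 change of -0.30 in MYC cells. ITGA7 had 17.0 FPKM in untreated vector cells, 22.4 FPKM in Dox-treated vector cells, 18.4 FPKM in untreated MYC cells and 9.77 FPKM in induced MYC cells. With Dox ITGA7 was lower in one line and higher in the other, at log2 changes of -0.90 in MYC cells and 0.40 in vector cells. As a ratio of FPKM, ITGA3 to ITGA6 was 0.170, 0.168, 0.161 and 0.0578 over the 4 libraries. ITGA7 shares exon sequence with BLOC1S1 on the opposite strand, which had 106, 124, 110 and 96.4 FPKM in that order, and whether the FPKM values use strand is not given in the sources used here. Its part in the ITGA7 values was not tested.

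ITGB1 pairs with most alpha subunits of the set, and ITGB5, ITGB3 and ITGB8 pair with ITGAV to bind fibronectin, vitronectin or latent TGF-beta. ITGB5 was the most abundant subunit, with 81.9, 78.0, 84.6 and 59.7 FPKM and a log2 change of -0.50 in MYC cells. ITGB1 had 65.3, 61.1, 67.1 and 42.9 FPKM, a log2 change of -0.64. ITGAV had 15.7, 14.6, 15.2 and 9.96 FPKM, a log2 change of -0.60. The induced library was lowest for all 3, by an amount near the 1.5-fold mark that ITGB1 and ITGAV passed and ITGB5 did not.

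ITGB3 had 10.1 FPKM in untreated vector cells, 10.5 FPKM in Dox-treated vector cells, 12.3 FPKM in untreated MYC cells and 5.90 FPKM in induced MYC cells. Its log2 change was -1.05 in MYC cells and 0.06 in vector cells, so the beta 3 subunit lay further down than ITGAV. The exons of ITGB3 overlap those of another protein-coding gene on the same strand, and the part of that overlap in the ITGB3 values was not tested. ITGB8 had 13.7, 12.5, 15.2 and 8.38 FPKM, a log2 change of -0.85. Relative to ITGAV, ITGB3 was at 0.644, 0.722, 0.809 and 0.592 of its FPKM in the order of libraries above. The highest of these ratios was in the untreated MYC-inducible library, and those of the vector line lay between the others.

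The remaining alpha subunits were low. ITGA1, a collagen receptor subunit, had 1.72, 1.39, 1.90 and 0.991 FPKM, a log2 change of -0.88 in MYC cells and -0.29 in vector cells, and its exons overlap PELO on the same strand, which was at 16.1 FPKM in both MYC libraries. ITGA9 had 2.08, 1.98, 2.27 and 1.45 FPKM, a log2 change of -0.61. ITGA5, the fibronectin receptor subunit, had 2.19, 2.17, 1.82 and 1.29 FPKM, a log2 change of -0.46. Of these, ITGA1 and ITGA9 passed 1.5-fold, although against the vector library with Dox their log2 differences were -0.45 and -0.43. That of ITGA5 was -0.71, past 1.5-fold. ITGA4 had 1.75, 1.48, 1.97 and 1.58 FPKM, and its induced value lay inside the range of the other 3. ITGAE, whose exons overlap HASPIN on the opposite strand, had 5.49, 5.33, 5.77 and 6.02 FPKM, a log2 change of 0.06.

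**Figure D3:**
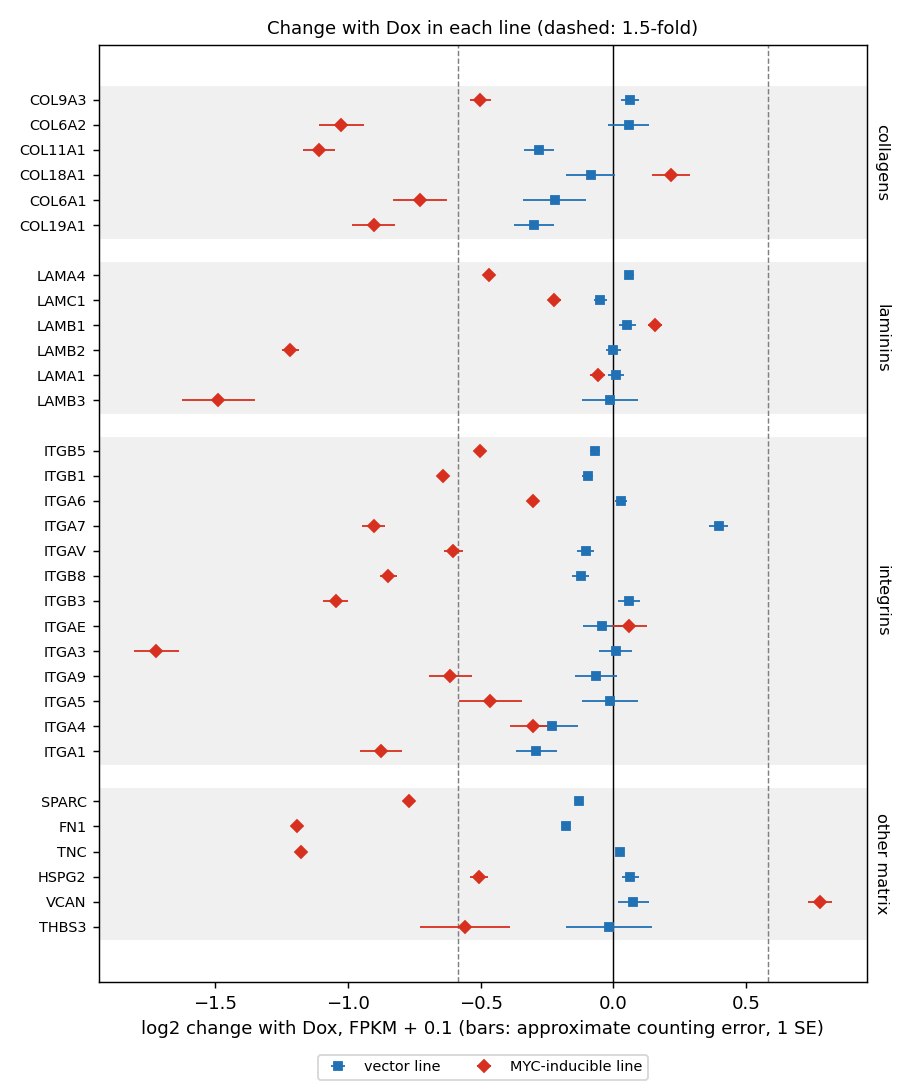
Points give the log2 change with Dox on the FPKM + 0.1 scale for each gene, in MYC cells (red) and the vector line (blue), with bars of 1 approximate counting error. In the vector line the points lie between -0.30 and 0.40, and in MYC cells between -1.72 and 0.78.

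The collagens at a measurable level were minor types. COL9A3, a chain of the fibril-associated collagen IX, was the most abundant, with 38.9 FPKM in untreated vector cells, 40.6 FPKM in Dox-treated vector cells, 30.1 FPKM in untreated MYC cells and 21.3 FPKM in induced MYC cells. The untreated MYC-inducible library was already below both vector libraries, and the log2 change of -0.50 did not reach 1.5-fold. Against the vector library with Dox the log2 difference was -0.93. COL11A1, a chain of fibrillar collagen XI, had 5.35, 4.39, 6.04 and 2.74 FPKM, a log2 change of -1.11 in MYC cells and -0.28 in vector cells. COL19A1 had 2.34, 1.88, 2.42 and 1.25 FPKM, a log2 change of -0.90 in MYC cells and -0.30 in vector cells. Both were lowest in the induced library and second lowest in the vector library with Dox. LMBRD1, which overlaps COL19A1 on the opposite strand, had 10.3 FPKM in untreated and 6.66 FPKM in induced MYC cells, and its part in the COL19A1 values was not tested.

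COL6A1 and COL6A2 encode chains of the microfibrillar collagen VI and lie 93.1 kb apart on chromosome 21. COL6A2 had 5.15 FPKM in untreated vector cells, 5.37 FPKM in Dox-treated vector cells, 6.12 FPKM in untreated MYC cells and 2.96 FPKM in induced MYC cells. The induced library was below the other 3, at a log2 change of -1.03. COL6A1 had 1.82, 1.54, 2.86 and 1.69 FPKM in the same order. Here the untreated MYC-inducible library was the one that stood apart, so the log2 change of -0.73 rests on it, and against the vector library with Dox the difference was 0.12. COL6A3, which encodes the third classical chain, was under 0.1 FPKM in every library.

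COL18A1, the collagen XVIII gene and source of endostatin, is the third collagen gene of the set on chromosome 21. It had 2.33, 2.19, 3.14 and 3.67 FPKM, a log2 change of 0.22 in MYC cells and a difference of 0.72 from the vector library with Dox. SLC19A1, which overlaps it on the opposite strand, had 7.47, 7.71, 7.79 and 16.4 FPKM, and its part in the COL18A1 values was not tested.

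The filter left out 63 of the 94 symbols. Just inside it was THBS3, with a mean of 1.05 FPKM, and just outside were COL22A1, with a mean of 0.950 FPKM, and COL16A1, with a mean of 0.798 FPKM. Of the 63, 43 stayed under 0.2 FPKM in every library and 3 (COL3A1, ITGA8 and ITGB2) were listed at 0 in all 4. The main fibrillar collagen genes of connective tissue were thus near 0, with neither COL1A1 nor COL1A2 above 0.0164 FPKM in any library. The chains of the basement membrane collagen IV shown here also stayed under 1 FPKM, with COL4A1 at 0.0496 to 0.134 FPKM and COL4A2 at 0.374 to 0.586 FPKM. Among the 63, 10 symbols fell and 1 rose in MYC cells on the log2(FPKM + 0.1) scale, against 5.40% and 3.40% of all 14121 symbols under the filter. In vector cells 3 of the 63 fell, against 2.39%. Over all 94 symbols without the filter, 27 fell and 2 rose in MYC cells, against 6.92% and 4.50% of all 25268 symbols, and 3 fell in vector cells, against 1.53%. THBS1, singled out with its values known, had 0.827, 0.468, 0.745 and 0.209 FPKM and was lower with Dox in both lines.

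Genes that make, cut or bind this matrix were examined as 4 lists, to be read against the 8.85% of all genes that fell and the 5.90% that rose in MYC cells, at a median log2 change of -0.03, and against 0.440% and 0.709% in vector cells. Of 26 genes of collagen folding, crosslinking and export at a mean of at least 1 FPKM, 7 fell and 0 rose in MYC cells, with a median log2 change of -0.37, and 0 changed in vector cells. SERPINH1, the collagen chaperone HSP47, went from 50.2 to 28.4 FPKM on induction. P4HA2, a collagen prolyl hydroxylase subunit, went from 29.6 to 15.9 FPKM, LOXL3, a lysyl oxidase, from 22.8 to 12.2 FPKM, and SEC24D, a coat protein of export vesicles, from 5.10 to 2.62 FPKM. PPIB, the most abundant of the list, was at 572 and 575 FPKM. Of 20 matrix proteases and inhibitors, 12 fell and 0 rose, with a median of -0.67, and 1, MMP3, fell in vector cells. MMP14, a membrane-bound collagenase, went from 243 to 117 FPKM, PLAUR, the urokinase receptor, from 72.5 to 30.4 FPKM, and SERPINE2, a protease inhibitor, from 291 to 143 FPKM. MMP3 went from 2.39 to 0.923 FPKM in MYC cells and from 1.79 to 0.941 FPKM in vector cells.

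Of 34 integrin adaptors at that level, 6 fell and 0 rose in MYC cells, against 8.85% and 5.90% of all genes, with a median log2 change of -0.15 against -0.03, and 0 changed in vector cells. TGFB1I1 (HIC-5), a paxillin relative, went from 11.4 to 4.82 FPKM on induction, and FLNA, an actin crosslinker, from 52.4 to 31.8 FPKM. TNS1 went from 10.1 to 5.11 FPKM and TENC1, another tensin, from 3.05 to 1.76 FPKM. The kinase PTK2 (FAK) and the actin linker VCL had log2 changes of -0.17 and -0.02. Of 24 other matrix genes, 10 fell and 0 rose, against the same shares of all genes, with a median of -0.56. CTGF, a matricellular protein, went from 21.6 to 8.26 FPKM, and FBLN1 (fibulin-1) from 5.30 to 1.86 FPKM. MGP and MATN2 were lower with Dox in both lines, with log2 changes of -1.47 and -1.56 in MYC cells and -1.16 and -0.66 in vector cells. In the vector line MGP and MATN2 fell and 1 gene of this list, CYR61, rose, against 0.440% and 0.709% of all genes. LUM is in both this list and that of fibroblast markers, and COL1A1 and COL1A2 are collagen symbols as well as fibroblast markers.

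**Figure D4:**
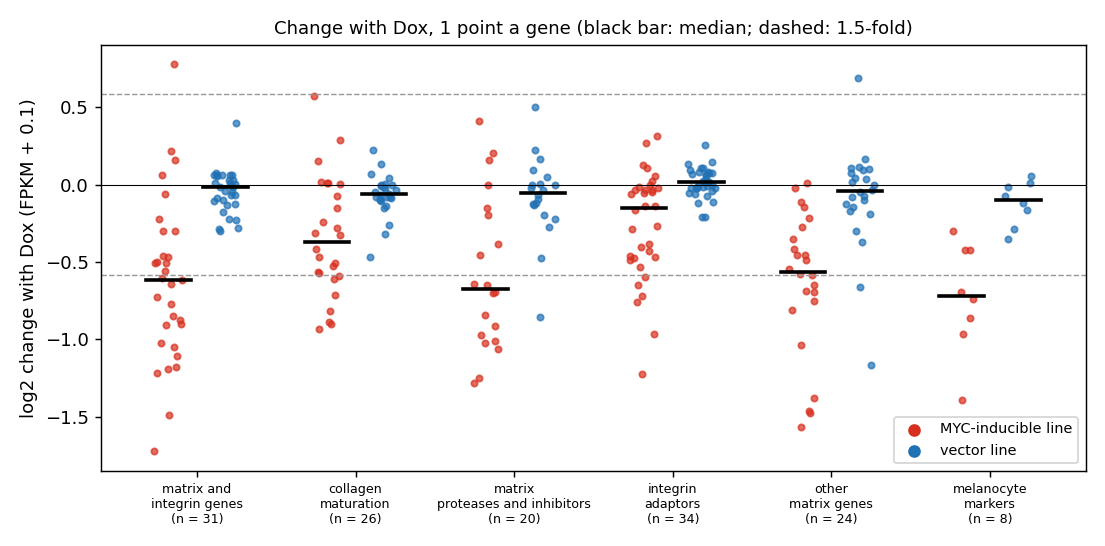
Each point is the log2 change of 1 gene with Dox on the FPKM + 0.1 scale, in MYC cells (red) and the vector line (blue), for the 31 genes and 5 further lists, with horizontal offsets for legibility. Black bars are medians, which in MYC cells are -0.61 for the 31 genes, -0.37, -0.67, -0.15 and -0.56 for the 4 matrix and adhesion lists and -0.72 for the melanocyte markers.

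Markers of the melanocyte lineage moved in the same library. Of 8 markers 5 fell and 0 rose in MYC cells, against 8.85% and 5.90% of all genes, with a median log2 change of -0.72 against -0.03. Their summed level was 8578, 8467, 8433 and 4666 FPKM in vector cells without and with Dox and in untreated and induced MYC cells. Of 2 epithelial markers at a mean of at least 1 FPKM, EPCAM rose from 0.726 to 2.71 FPKM, and the summed level of the 4 epithelial markers was 33.3, 36.6, 37.6 and 49.8 FPKM. The summed level of the 8 fibroblast markers was 29.9, 27.9, 31.7 and 26.1 FPKM, nearly all of it from LUM. The 4 endothelial markers summed to 0.427, 0.343, 0.386 and 0.210 FPKM. The part of these shifts in the matrix genes was not tested.

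Matrix genes have long transcripts, with a median annotated length of 5816 bases over the 31 genes and of 3151 bases over 10217 genes with a match. The 1763 genes with transcripts at least as long as 5816 bases had a median log2 change of -0.06 in MYC cells and 0.00 in vector cells. Exons of 23 of the 31 genes overlap an exon of another annotated gene, a protein-coding one for 11. Of the 8 without overlap (COL11A1, COL6A1, COL6A2, FN1, ITGA3, ITGB5, LAMB2 and LAMC1), 6 fell on induction, with a median log2 change of -1.07. Over all genes 8.85% fell, and no share is given for genes without overlap. The subset was chosen after seeing the data. COL6A1 is among the 6, although its log2 difference from Dox-treated vector cells was 0.12. The part of overlap in the falls was not tested.

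**Figure D5:**
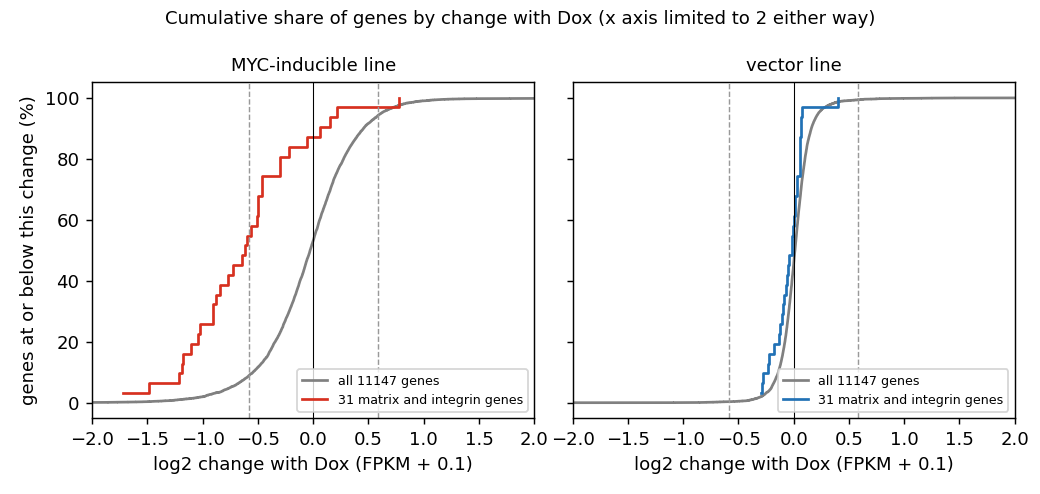
Curves give the percentage of genes with a log2 change at or below the value on the horizontal axis (FPKM + 0.1 scale), for the 31 genes and for all 11147 genes, with 1 panel for each line. The 31 genes lie to the left of all genes over most of their range in the MYC-inducible line, where the medians are -0.61 and -0.03, and near them in the vector line.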

How the data were processed

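RNA was sequenced on a HiSeq4000 from 4 cultures of SK-MEL-28 cells, 1 library per condition, grouped by their labels. The authors deposited 1 table of FPKM values, made with TopHat2 2.0.14 and Cufflinks on hg19 per the labels. The gene annotation and strand setting are not given in the sources used here, and both affect genes that overlap others. Of 27032 rows, those of 609 symbols with several rows were summed, and 1 unnamed row was dropped. The 31 genes were taken by symbol and a mean of at least 1 FPKM, a filter that used no comparison. Members, lists, thresholds and the promoters shown were chosen with earlier results of these data known.

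Changes were computed as differences of log2(FPKM + 0.1) and counted at 1.5-fold. With 1 library per condition no test was run. Named were members with such a change, with a mean of at least 100 FPKM or among the highest 2 of their class, chains that assemble with them, and up to 4 genes of each list with the largest changes. The remaining members are given briefly, and other genes named, such as PTK2, VCL, PPIB, THBS1 and overlapping genes, were chosen after their values were seen. Depth was estimated from the steps between low FPKM values, with GENCODE 44 transcript lengths lifted to GRCh37, and gives approximate counting errors only. Counts were recomputed under other pseudocounts, scalings, filters, thresholds and references, and the script was tested on simulated data. The scripts ran in Python 3.11.15 with pandas 2.3.3, numpy 2.4.6 and, for plots, matplotlib 3.10.9.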

Additional observations from a re-analysis of the deposited data

Results flagged for a closer look

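ITGA7 changed in opposite directions with Dox in the 2 lines, in each by more than the robust SD between untreated libraries over all genes (0.106 on the log2 scale). Its log2 change was -0.90 in MYC cells and 0.40 in vector cells, a difference of -1.30. With 1 library per condition this difference was not tested. BLOC1S1, which shares exon sequence with ITGA7 on the opposite strand, had log2 changes of -0.20 in MYC cells and 0.22 in vector cells. Its part in the ITGA7 values was not tested.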

How the results depend on the processing

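Of 103 recalculated summary values 80 stayed within their limits and 23 moved. Those limits were wide enough that the count of falls in MYC cells, 17 in the main setting and 13 with a pseudocount of 1, stayed within them. Of 217 recalculated changes of single genes 183 stayed, 33 moved and 1, that of COL6A1 against Dox-treated vector cells, was reversed. With a pseudocount of 1, 0 genes were higher between the untreated lines. Without the filter (94 symbols), 2 rose and 27 fell in MYC cells, against 4.50% and 6.92% of all symbols, with a median log2 change of -0.18. In vector cells 3 fell, against 1.53%. Between the untreated lines 1 was higher and 2 were lower. Induced MYC cells lay below the other 3 libraries for 15 symbols and above them for 2. With a filter at 5 FPKM (18 genes), 0 rose, 9 fell, 0 were higher between the untreated lines, and 6 lay below and 0 above the other 3. At 2-fold, 0 rose, 8 fell, 0 were higher between the untreated lines, and 4 lay below and 0 above. No share of all genes is given at the 5 FPKM filter, at 2-fold, with a pseudocount of 1 or against Dox-treated vector cells. Nor is one given without the filter for the untreated lines or for induced MYC cells beside the other 3 libraries. These counts cannot be set against the shares found at 1.5-fold with the filter of 1 FPKM. Against Dox-treated vector cells 13 fell and 2, VCAN and COL18A1, rose, at a median log2 difference of -0.55, against -0.01 over all genes. COL9A3 (-0.93), ITGA5 (-0.71) and LAMA4 (-0.60) lay at least 1.5-fold below that library but did not fall by 1.5-fold on induction. The log2 difference of COL6A1 was 0.12 in place of -0.73, and ITGA4 and LAMA1 also changed sign. Of the 18 genes called on induction, 7 (COL19A1, COL6A1, ITGA1, ITGA9, ITGAV, ITGB1 and ITGB8) were under 1.5-fold against that library and 4 (COL6A1, ITGA1, ITGA9 and ITGAV) with a pseudocount of 1. For the 8 genes without exon overlap, chosen after seeing the data, 0 rose, 6 fell, the median was -1.07, and 5 lay below and 0 above the other 3. Of all genes 5.90% rose, 8.85% fell, 5.86% lay below and 4.17% lay above, with no share given for genes without overlap. By its definition a change is understated more with a pseudocount of 1, most of all for low genes. The other settings changed the genes counted, the reference or the threshold. No paired analysis was possible because there was 1 library per condition. Leaving out a library leaves no comparison, and the spread between cultures of 1 condition is unknown.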
